A study of Mus musculus with 1086 samples.

Results

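The liver response to a high fat diet was examined in 15 males of the inbred strain C57BL/6J, called B6 below: 8 on the high fat diet and 7 on the control diet. They were the animals of the founder table whose column names begin with the strain prefix B6, 15 of its 128 males and 15 of 16 with that prefix. The sixteenth, control replicate 4, was left out because its profile went against its label, a choice that rests on measured values. Each strain's profile was the median log2 value of all its labelled animals. Animals and strains were compared as deviations from the mean of the 8 strain medians, over 10773 genes. On these deviations control replicate 4 had a correlation of 0.699 with the NOD/ShiLtJ profile and of -0.056 with that of B6. In turn 1 NOD animal on high fat, replicate 3, had a correlation of 0.704 with B6. All 15 animals analysed were closest to B6. The series sequenced liver RNA, as single-end reads of 100 bases, from genetically mixed Diversity Outbred mice and from males of their 8 founder strains. The B6 males were 26 weeks old, with 1 library per animal, all on the same flowcell. The high fat diet is given in the labels as 45% of kcal from fat with 34% sucrose by weight, against 17% of kcal from fat in the control diet, and elsewhere as 22% against 6% fat by weight, so the exact diets are not settled. C57BL/6J carries a known deletion in Nnt, the mitochondrial transhydrogenase, on both diets. The 15 B6 animals had 260 to 550 count equivalents of Nnt, against 498 to 1614 in 111 animals of the other 7 strains, with 821 in control replicate 4 and 374 in NOD high fat replicate 3.

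A liver that receives more fatty acid than it burns or exports esterifies it to triglyceride and packs it into lipid droplets, a program driven in part by the nuclear receptor PPARG. Fatty acids also activate PPARA, which turns on their oxidation in mitochondria and peroxisomes. Cholesterol synthesis is under feedback: when sterols are plentiful, the transcription factor SREBP2 is held back and the genes of the pathway are transcribed less.

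Values are count equivalents, the deposited signal times 1 constant of 114.459, the mean number of reads at the upper quartile of a column, so that 1 unit stands for about 1 estimated read in a library of typical depth. They are not divided by gene length, so levels are compared between animals and never between genes. Estimated depth was 6.19 to 10.6 M reads per animal in the high fat group (median 8.41) and 8.08 to 8.997 M in the control group (median 8.42), where M stands for mega. Replicate numbers only name animals. Changes are log2(count equivalents + 1) in high fat minus control animals with the SE of the model, folds are on that scale and so understate the change of low genes, and a gene is called at a Benjamini-Hochberg adjusted p of limma under 0.05. In bulk liver, fewer cells of a type and less RNA per cell cannot be told apart. Control replicate 5 stood apart, with a correlation of 0.445 with the B6 profile where the highest animal reached 0.808, and results that turn on it are given without it.

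In B6 livers on high fat, 8 of 22 tested genes of triglyceride synthesis and lipid droplets were called higher and 10 of 25 of cholesterol synthesis and uptake were called lower, with at most 4 calls in any other pathway list. Of 11753 genes tested, 265 were called (2.25%), 176 higher (1.5%) and 89 lower (0.757%) with high fat. With every animal scaled to the same total, 115 were higher and 96 lower. The median change over all genes tested was -0.00081. Among the calls, 53 were over 2-fold higher (0.451%) and 35 over 2-fold lower (0.298%). In 42 genes (0.357%) every high fat animal was above every control, and in 32 (0.272%) every one was below. The count depended on single animals: without control replicate 5 it was 637, 260 of the 265 among them, and without high fat replicate 3 it was 438. Leaving out high fat replicate 7 gave 93 calls, the fewest for any animal. Of the 47 called genes described here, 21 kept their call in every fit without 1 animal that gave them a value. Among the 21, Cidea and Mogat1 had a value in 8 of the 15 fits. They passed the filter through high fat animals alone, and leaving out any of these but replicate 3 left both untested. Called genes outside the 21 are given with the highest adjusted p they reached in fits without 1 animal.

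**Figure D1:**
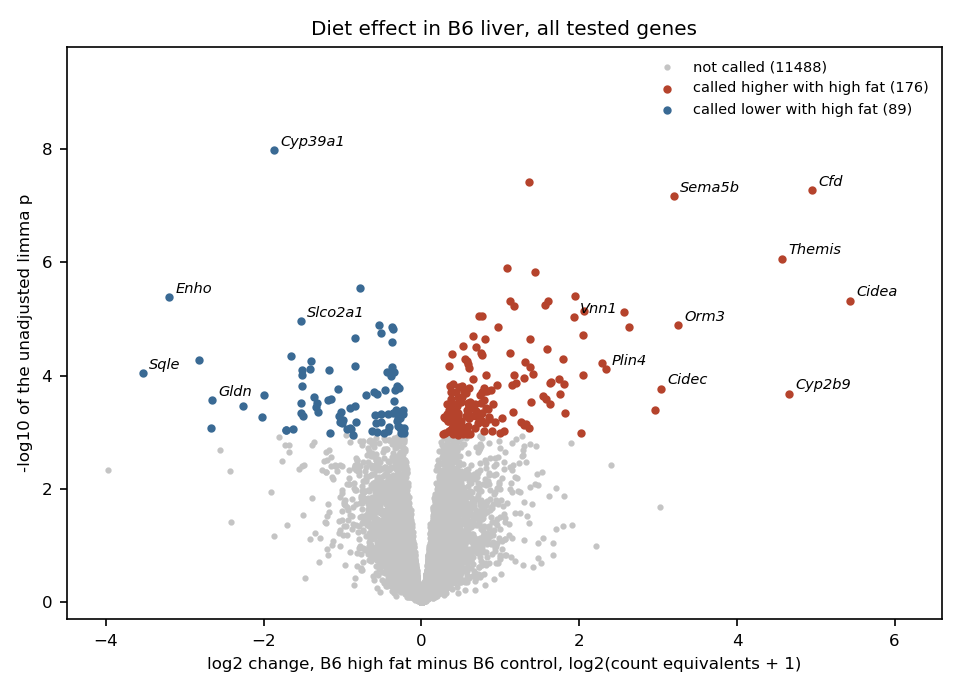
Each point is 1 of 11753 genes tested in B6 liver. The horizontal axis is the log2 change in high fat minus control animals, on log2(count equivalents + 1), and the vertical axis is the -log10 of the unadjusted limma p. Genes called higher (176) are red and genes called lower (89) blue. Cidea, Cfd, Cyp2b9 and Themis lie farthest to the right and Sqle and Enho are the called genes farthest to the left.

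Lipid storage genes were called in 1 direction. Of 25 genes for triglyceride synthesis and lipid droplets, 24 were in the table and 22 were tested, and 8 were called higher and 0 lower, against backgrounds of 1.5% and 0.757%. The median change of the 22 was 0.37, and 19 were positive. The 8 were the droplet proteins Cidea, Cidec, Plin4 and Fitm1, the acyltransferases Mogat1 and Agpat2, the fatty acid transporter Cd36 and Pparg.

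Cidea (ENSMUSG00000024526), a protein that enlarges droplets by fusing them, had 2.56 to 329 count equivalents in high fat animals (median 91.7), against 0 to 2.49 in controls (median 0). It was listed at 0 in 5 of 7 controls, and every high fat animal was above every control, although the lowest, replicate 3, was just above. The change was 5.44 ± 0.81 (SE), a 43.3-fold difference and the largest increase of a called gene (limma adjusted p = 0.00436). Cidec, its relative in droplet fusion, had 102.5 to 1748 count equivalents in high fat animals (median 362), against 17.0 to 324 in controls (median 43). The groups overlapped because control replicate 5 was at 324 and the next control at 61.3. The rise was 8.23-fold (3.04 ± 0.63, limma adjusted p = 0.0229).

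Plin4, a perilipin that coats droplets, had 247 to 1472 count equivalents with high fat (median 1054) and 65.3 to 311 with control diet (median 139). High fat animals fell into a lower group of 3, replicates 3, 6 and 8, at 247 to 325, and a higher group of 5 at 986 or more. The difference was 5.04-fold (2.33 ± 0.45, limma adjusted p = 0.0159). Fitm1, an endoplasmic reticulum protein that helps droplets form, had 155 to 336 count equivalents in high fat animals (median 228) and 14.1 to 112 in controls (median 59.9), without overlap (4.13-fold, limma adjusted p = 0.0077).

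Mogat1, which joins a fatty acid to monoacylglycerol, had 9.40 to 74.1 count equivalents with high fat (median 31.2) and 0.894 to 8.88 with control diet (median 3.66). The groups did not overlap, and the change was 2.63 ± 0.43, or 6.2-fold (limma adjusted p = 0.00636). Agpat2, an enzyme of the main route to triglyceride, rose by 1.41-fold, with 848 to 1393 count equivalents in high fat animals (median 1033) and 587 to 912 in controls (median 780.5; limma adjusted p = 0.0418). Dgat1 and Dgat2, which make the final bond, changed by 0.17 and 0.28 and were not called.

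Cd36 had 709 to 2893 count equivalents with high fat (median 1418) and 174 to 1430 with control diet (median 308), of which the 1430 belonged to control replicate 5 and the next control was at 488. It rose 4.15-fold (2.05 ± 0.40, limma adjusted p = 0.0173). Pparg had 76.0 to 262 count equivalents in high fat animals (median 88.3) and 36.2 to 63.3 in controls (median 46.5). Every high fat animal was above every control, and replicates 1, 5 and 7 at 232 to 262 stood over the others at 76.0 to 94.6. The rise was 2.62-fold (1.39 ± 0.30, limma adjusted p = 0.0285). Plin2, the most general droplet coat, changed by 0.32 (adjusted p = 0.525), and G0s2, an inhibitor of triglyceride breakdown, by 1.44 (adjusted p = 0.126).

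The animals took the same places in several of these genes. The highest high fat animal was replicate 5 in 5 of the 8, replicate 1 in 2 and replicate 7 in 1, and the lowest was replicate 3 in 6 and replicate 8 in 2. The highest control was replicate 5 in 4 of the 8. With the sequencing lane as a block, 4 of the 8 were called. That block gives no weight to high fat replicate 5, the single B6 animal of its lane, and Pparg (adjusted p = 0.0699), Plin4 (0.0674), Cd36 (0.0667) and Cidec (0.0711) were the 4 not called. When single animals were left out, the adjusted p reached 0.0639 for Pparg (without control replicate 3), 0.0542 for Cidec (without control replicate 6) and 0.0904 for Agpat2 (without control replicate 7).

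**Figure D2:**
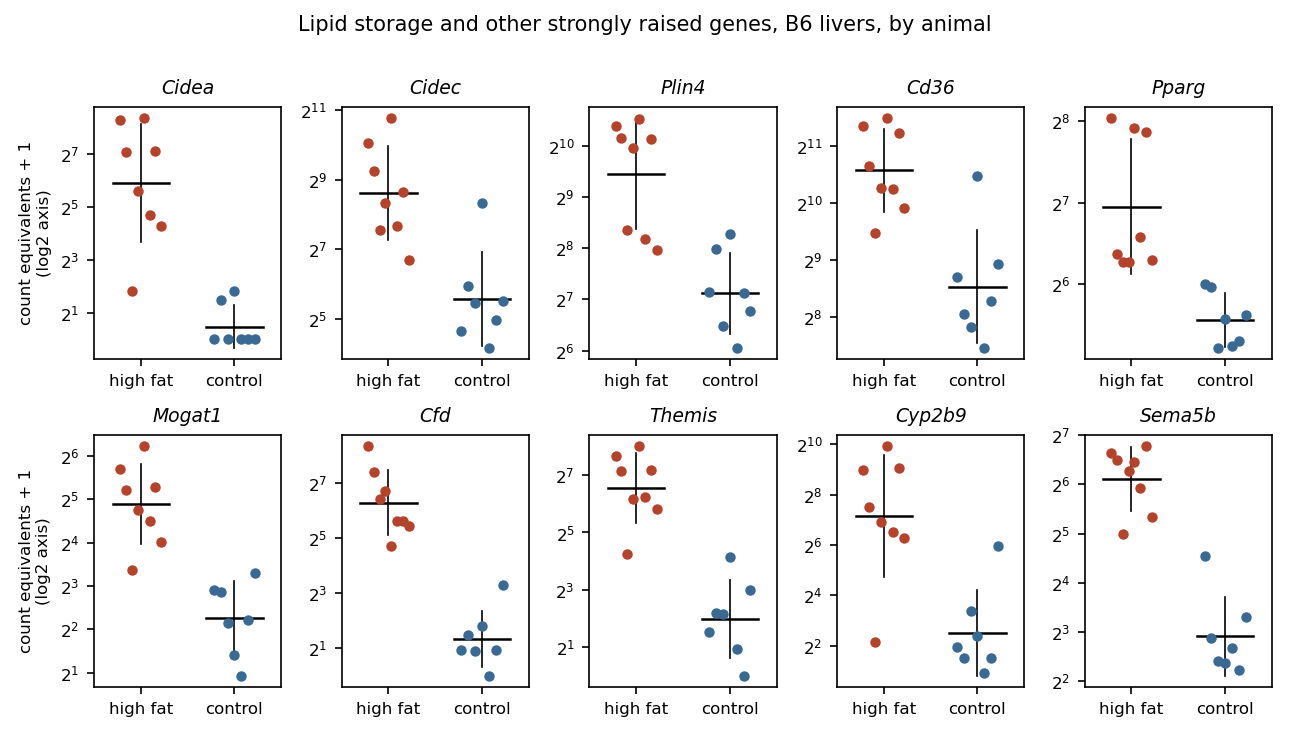
Each point is 1 B6 animal, high fat (red, n = 8) left of control (blue, n = 7), on a log2 axis of count equivalents + 1, with the mean as a horizontal line and the SD of the log2 values as a vertical line. In Cidea, Mogat1, Pparg, Cfd, Themis and Sema5b every high fat animal is above every control, and in Cidec, Plin4, Cd36 and Cyp2b9 the groups overlap.

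Cfd (ENSMUSG00000061780), which encodes complement factor D or adipsin, a protease known as a product of fat cells, was the second largest rise. It had 25.3 to 327 count equivalents in high fat animals (median 67.2), against 0 to 8.88 in controls (median 0.931). The lowest high fat animal was replicate 5, and no control reached it. The change was 4.95 ± 0.53, or 31-fold (limma adjusted p = 0.000203). The defining fat cell genes Adipoq, Lep, Plin1 and Retn were at or near 0 in all 15 animals: none exceeded 0.964 count equivalents in a high fat animal or 1.97 in a control. Of 8 adipocyte markers 4 were tested and Cfd alone was called, where 2.25% of all genes tested were called. The summed level of the 8 was 7815 to 20240 with high fat and 3831 to 12870 with control diet, most of it Car3, an enzyme that hepatocytes also make.

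Fatty acid synthesis had few calls. Of 20 genes of fatty acid synthesis, all tested, 2 were called higher and 0 lower, against backgrounds of 1.5% and 0.757%, with a median change of 0.02 and 12 positive. Scd1, the desaturase that makes monounsaturated fat, had 94710 to 259200 count equivalents in high fat animals (median 151500) and 26170 to 110200 in controls (median 68350). The groups overlapped, with 5 of 8 high fat animals above every control, and the rise was 2.49-fold (1.32 ± 0.32, limma adjusted p = 0.0388). Elovl5, an elongase of polyunsaturated fatty acids, rose 1.76-fold (limma adjusted p = 0.0313), with 3172 to 8632 count equivalents in high fat animals (median 4920) and 1929 to 3732 in controls (median 2881). Scd1 was not called with the lane block (adjusted p = 0.0711), in a fit of all founder strains (adjusted p = 0.111) or in 9 of 15 fits without 1 animal (up to 0.092), and Elovl5 not with the lane block (0.06) or in 8 of 15 (up to 0.0701). Srebf1, the transcription factor of lipogenesis, changed by 1.28 ± 0.33 and was just short of the threshold (limma adjusted p = 0.0508). Whether it was called depended on the setting. In the fit of all founder strains it was called (limma adjusted p = 0.00757), and without 1 animal the adjusted p ran from 0.0115 to 0.111. The synthases Fasn and Acly changed by -0.57 and -0.65 and were not called.

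Most genes of fatty acid oxidation and other PPARA targets had small positive changes. Of 37 listed, 36 were tested, 3 were called higher and 0 lower, against backgrounds of 1.5% and 0.757%, with a median change of 0.37 and 33 positive, where 49.8% of all genes tested were positive. Vnn1, a pantetheinase known as a PPARA target, had 492.9 to 1300 count equivalents in high fat animals (median 829.3), against 89.6 to 444 in controls (median 203). The groups did not overlap and the rise was 3.82-fold (1.93 ± 0.31, limma adjusted p = 0.00543). Acaa1b, a peroxisomal thiolase, rose 2.25-fold (limma adjusted p = 0.0173) and Hadh, a mitochondrial dehydrogenase of the same pathway, 1.53-fold (limma adjusted p = 0.0312). Acaa1b had 7456 to 14430 count equivalents with high fat (median 9751) and 2843 to 8147 with control diet (median 3668), so that 6 of 8 high fat animals were above every control. Cyp4a10 and Cyp4a14, fatty acid hydroxylases that PPARA strongly induces, changed by 1.34 and 1.19 and were not called (adjusted p = 0.229 and 0.515). Fgf21, a fasting hormone made by the liver, had 10.3 to 222 count equivalents with high fat (median 23.1) and 6.64 to 79.3 with control diet (median 30.7), with 0.36 ± 0.58 between them (adjusted p = 0.797). Replicate 3 gave the 222, and without it the change was -0.04. Hadh lost its call in 9 of 15 fits without 1 animal (adjusted p up to 0.0666).

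Transcripts of cholesterol synthesis were called in the lower direction alone. Of 26 genes for cholesterol synthesis and uptake, 25 were in the table and tested and Hmgcs1 was not analysed here. All 25 changes were negative, with a median of -1.04, and 10 were called lower and 0 higher, against backgrounds of 0.757% and 1.5%. Those described run along the pathway: Mvk at its start, Idi1 in isoprenoid supply, Sqle and Lss at the closing of the sterol rings, and Cyp51, Msmo1, Nsdhl and Hsd17b7 in the later steps, with Rdh11, a retinol dehydrogenase regulated with them.

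Sqle, squalene epoxidase, had 6.54 to 197 count equivalents in high fat animals (median 51.6), against 63 to 1329 in controls (median 650.2). It was 11.6-fold lower (-3.54 ± 0.69, limma adjusted p = 0.017), the largest decrease of a called gene. The groups overlapped only through control replicate 5 at 63, the next control being at 337. Idi1 had 83.9 to 337 count equivalents with high fat (median 149) and 92.7 to 1809 with control diet (median 949.5), and was 4.81-fold lower (limma adjusted p = 0.0303). Control replicate 5 was again the lowest of its group, and the next control was at 593, above all high fat animals.

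The later enzymes were lower too. Cyp51, which demethylates lanosterol, had 131 to 437 count equivalents with high fat (median 199.9) and 149 to 1769 with control diet (median 1003), and was 4.01-fold lower (limma adjusted p = 0.0251). Msmo1 was 3.30-fold lower (adjusted p = 0.0452), Nsdhl 3.08-fold (adjusted p = 0.0442), Rdh11 2.56-fold (adjusted p = 0.0261), Mvk 2.23-fold (adjusted p = 0.0478), Lss 2.06-fold (adjusted p = 0.0343) and Hsd17b7 2.04-fold (adjusted p = 0.0382), all by limma. Srebf2, which encodes SREBP2, changed by -0.60 and was not called (adjusted p = 0.0569).

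The number of cholesterol genes called rested on which animals were in the fit. Without control replicate 5 it was 21 of 25, with the lane block 2, and with control replicate 4 kept under its label 0. Leaving out single animals gave 2 to 21, and Sqle kept its call in each fit without 1 animal, but not with the lane block (adjusted p = 0.0547) or with control replicate 4 kept (0.109). Of the 9 described, Hsd17b7 alone was called with the lane block, where the others had an adjusted p of 0.0547 to 0.101. Without 1 animal, the highest adjusted p of those described other than Sqle lay between 0.0574 (Cyp51) and 0.101 (Mvk).

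Promoters of 4 of the genes that fell together are shown to let the sequence ahead of their starts be read. They are the 250 bases before the start, 5′ to 3′ on the gene's strand, from RefSeq on GRCm38.p6, and capitals mark the letters CCAAT or their reverse complement ATTGG. Cyp51 is at chr5:4104698-4104947 (minus strand), Idi1 at chr13:8885356-8885605 (plus strand), Msmo1 at chr8:64733579-64733828 (minus strand) and Lss at chr10:76531355-76531604 (plus strand).
Cyp51: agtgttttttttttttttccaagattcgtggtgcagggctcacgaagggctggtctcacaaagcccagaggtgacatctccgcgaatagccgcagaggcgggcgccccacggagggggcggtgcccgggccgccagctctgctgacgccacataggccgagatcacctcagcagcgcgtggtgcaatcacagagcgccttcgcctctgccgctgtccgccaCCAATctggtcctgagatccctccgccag
Idi1: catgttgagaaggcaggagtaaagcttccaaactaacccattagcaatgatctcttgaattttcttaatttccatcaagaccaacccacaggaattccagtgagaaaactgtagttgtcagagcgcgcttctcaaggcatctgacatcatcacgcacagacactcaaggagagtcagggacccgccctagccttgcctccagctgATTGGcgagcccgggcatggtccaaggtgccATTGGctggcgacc
Msmo1: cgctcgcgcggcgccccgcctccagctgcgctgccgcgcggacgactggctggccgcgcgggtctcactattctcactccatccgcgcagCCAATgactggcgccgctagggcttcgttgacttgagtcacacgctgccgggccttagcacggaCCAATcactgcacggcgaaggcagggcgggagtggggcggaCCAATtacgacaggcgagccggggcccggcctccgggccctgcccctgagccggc
Lss: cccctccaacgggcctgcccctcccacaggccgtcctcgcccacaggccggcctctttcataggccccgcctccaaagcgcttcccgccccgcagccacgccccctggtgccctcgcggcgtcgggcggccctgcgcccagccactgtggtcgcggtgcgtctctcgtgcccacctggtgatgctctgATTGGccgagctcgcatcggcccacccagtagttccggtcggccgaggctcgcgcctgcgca

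Searched on both strands, CCAAT was in a window of 8 of 8 called cholesterol genes that had a promoter entry. They were Cyp51, Hsd17b7, Idi1, Lss, Msmo1, Mvk, Nsdhl and Rdh11. A gene counted when the window of any of its starts matched, and the Rdh11 window at chr12:79191856-79192105 had 0 matches. Over all tested cholesterol genes CCAAT was in 16 of 17 (94.1%), and over all 27025 genes of the promoter table in 37.5%. In the lipid storage genes called higher it was in 3 of 7 (42.9%). The letters TCACNCCAC, a form of the sterol response element, were in 0 of the 8 and in 1.22% of all promoters, and AGGNCA repeated after 1 base, a form of the PPAR element, in 0 of the 7 lipid storage promoters and in 0.4% of all. No motif contains another. A match is a string of letters and was not tested as a binding site.

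**Figure D3:**
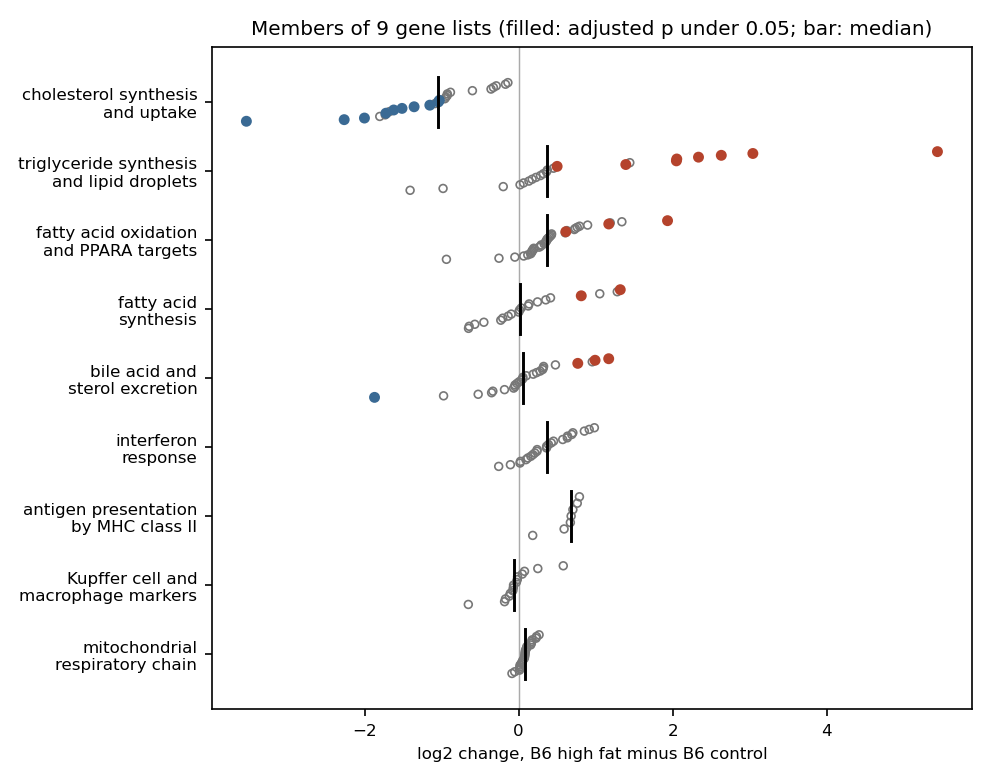
Each circle is 1 tested member of a gene list in B6 liver, placed by its log2 change in high fat minus control animals. Filled circles passed an adjusted p of 0.05 (red higher, blue lower), and black bars are list medians. All 25 cholesterol genes lie left of 0 with 10 filled, and the lipid storage list has 8 filled circles on the right.

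Genes for the disposal of sterols and bile acids were mixed: of 26 tested, 3 were called higher and 1 lower, against backgrounds of 1.5% and 0.757%, with a median change of 0.05. Cyp39a1 (ENSMUSG00000023963), a hydroxylase that turns oxysterols toward bile acids, gave the smallest p of all genes tested. It had 86.7 to 144 count equivalents in high fat animals (median 120.4), against 301 to 755 in controls (median 405). No animals overlapped, and it was 3.66-fold lower (-1.87 ± 0.18, limma adjusted p = 0.000124). Abcc3, which exports bile acid conjugates to the blood, had 1210 to 2691 count equivalents with high fat (median 1780) and 590.2 to 1273 with control diet (median 799). Only the lowest high fat animal was under the highest control, and Abcc3 rose 2.25-fold (1.17 ± 0.18, limma adjusted p = 0.00455). Abcg5 and Abcg8, the paired transporter of cholesterol into bile, rose 1.99-fold and 1.70-fold (limma adjusted p = 0.048 and 0.0338). Abcg5 had 656 to 1430 count equivalents with high fat (median 978.5) and 332 to 1347 with control diet (median 408), the 1347 being control replicate 5. Cyp7a1, the rate-limiting enzyme of bile acid synthesis, had 170.0 to 1896 count equivalents with high fat (median 322) and 38.2 to 2711 with control diet (median 1236). The 38.2 belonged to control replicate 5, and the next control was at 402. Cyp7a1 was not called (-0.98 ± 0.76, limma adjusted p = 0.553). Without 1 animal its adjusted p ran from 0.0668 to 0.71. Among 24 lipoprotein genes tested 0 were called higher and 1 lower, Apom, which carries sphingosine-1-phosphate on high density lipoprotein (1.8-fold lower, limma adjusted p = 0.0152). With the lane block Abcg5 (adjusted p = 0.0733) and Apom (0.0593) were not called, and without 1 animal Abcg5 and Abcg8 reached 0.105 and 0.0714. With control replicate 4 kept, Cyp39a1 (0.386), Abcg5 (0.234) and Abcg8 (0.14) were not called.

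Glucose and hormone genes changed singly. Of 24 glucose genes tested 2 were called higher and 0 lower, against backgrounds of 1.5% and 0.757%. Pcx, pyruvate carboxylase, rose 1.49-fold (limma adjusted p = 0.0238), with 4600 to 7909 count equivalents in high fat animals (median 6512) and 3612 to 5333 in controls (median 4113), so that 6 of 8 high fat animals were above every control. G6pc, which releases glucose, changed by -1.15 (adjusted p = 0.0902). Of 22 genes of insulin and growth hormone signalling, Enho was called lower and Inhbe, a subunit of activin E, higher (2.40-fold, limma adjusted p = 0.0382). Enho encodes adropin, a secreted peptide linked to energy balance. It had 0.841 to 33.3 count equivalents in high fat animals (median 9.32), against 44.8 to 156 in controls (median 83.8). The groups did not overlap, and it was 9.17-fold lower (-3.20 ± 0.47, limma adjusted p = 0.00436). Without 1 animal the adjusted p reached 0.0574 for Pcx and 0.0803 for Inhbe, and with the lane block it was 0.0694 for Inhbe.

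Detoxification genes held some of the widest differences. Of 27 xenobiotic genes tested, 2 were called higher and 0 lower, against backgrounds of 1.5% and 0.757%, with a median change of 0.35. Cyp2b9, a cytochrome P450 that mouse livers express with a female bias, had 3.42 to 976 count equivalents in high fat males (median 151), against 0.894 to 61.2 in control males (median 2.79). High fat replicate 3 was within the control range and the other 7 were above it, and the rise was 25.3-fold (4.66 ± 0.98, limma adjusted p = 0.0243). Cyp3a25 rose 2.11-fold without overlap (1.08 ± 0.15, limma adjusted p = 0.00244), with 2249 to 3437 count equivalents in high fat animals (median 2842) and 989 to 2121 in controls (median 1238). Cyp3a59 rose 4.16-fold (limma adjusted p = 0.00519). Close copies exist among the Cyp2b and Cyp3a genes, and the counting may have split reads between them uncertainly. Of 9 tested female-biased genes Cyp2b9 alone was called, and of 23 tested male-biased genes Gstp1 alone. Gstp1, a glutathione transferase, was 2.21-fold lower (-1.15 ± 0.25, limma adjusted p = 0.027), with 2987 to 8923 count equivalents in high fat animals (median 3969) and 5845 to 14750 in controls (median 11950). Its near-identical neighbour Gstp2 changed by -1.50 (adjusted p = 0.228), and reads of the pair may be split uncertainly. It was also the single call among 30 glutathione and oxidative stress genes. Without 1 animal the adjusted p reached 0.0574 for Cyp2b9 (without control replicate 6) and 0.0631 for Gstp1 (without control replicate 3), and Gstp1 was not called with the lane block (0.0861). With control replicate 4 kept, Cyp2b9 (0.0633), Cyp3a25 (0.0749) and Cyp3a59 (0.0706) were not called.

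Several of the widest called differences belong to none of these lists. Themis, known for signalling in developing T cells, had 17.9 to 258 count equivalents in high fat animals (median 108), against 0 to 16.6 in controls (median 3.44). It rose 23.8-fold without overlap (4.57 ± 0.60, limma adjusted p = 0.00203). Of 15 lymphocyte markers 2 were tested and 0 called, and their summed level was 44.7 to 726 count equivalents with high fat and 50.4 to 148 with control diet. The T cell receptor subunits Cd3d, Cd3e and Cd3g were at most 7.69 count equivalents in a high fat animal and 9.12 in a control. Sema5b, a semaphorin, had 30.8 to 109 count equivalents with high fat (median 81.4) and 3.66 to 22.3 with control diet (median 5.37), again without overlap (9.18-fold, limma adjusted p = 0.000203). Orm3, an orosomucoid of the acute phase family, had 15.4 to 207 count equivalents with high fat (median 126) and 2.70 to 27.4 with control diet (median 9.87). It rose 9.53-fold (limma adjusted p = 0.00636), the single call among 27 acute phase genes, where 2.25% of all genes tested were called. The abundant Saa1 changed by 0.47 (adjusted p = 0.591). Orm1, Orm2 and Orm3 are close copies, so the copy is uncertain. Smpd3, a neutral sphingomyelinase, had 17.1 to 89.2 count equivalents with high fat (median 55.2) and 4.30 to 23.2 with control diet (median 4.93), and rose 5.95-fold (limma adjusted p = 0.00519). High fat replicate 3 was the single animal of its group under the highest control, replicate 5.

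On the lower side, Slco2a1, a prostaglandin transporter, had 86.7 to 299.8 count equivalents with high fat (median 175) and 350.0 to 695 with control diet (median 394), without overlap (2.90-fold lower, limma adjusted p = 0.00604). Gldn, gliomedin, had 1.30 to 18.8 count equivalents with high fat (median 2.54) and 7.21 to 149 with control diet (median 19.7), the 149 being control replicate 5 (6.28-fold lower, limma adjusted p = 0.0279). Fabp5, a fatty acid binding protein, was 4.05-fold lower (limma adjusted p = 0.0348), with 23.3 to 134 count equivalents in high fat animals (median 67.7) and 72.6 to 649 in controls (median 331). Adgrf1, an adhesion receptor, and Prss8, the protease prostasin, were 6.36-fold and 3.29-fold lower (limma adjusted p = 0.0437 and 0.0453). Both had low levels, with high fat medians of 5.97 and 11.3 and control medians of 27 and 43.8 count equivalents. Without 1 animal the adjusted p reached 0.0588 for Gldn, 0.0836 for Fabp5, 0.0975 for Adgrf1 and 0.0994 for Prss8, and with the lane block it was 0.0971 for Fabp5 and 0.0898 for Adgrf1.

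Among the other lists, Chac1, which degrades glutathione and is a target of the stress factor ATF4, was the single call of 24 in the unfolded protein response (2.60-fold higher, limma adjusted p = 0.0152). The median change of that list was -0.12, and 18 of the 24 changes were negative. Asns, another member, changed by -2.55 and was not called (limma adjusted p = 0.0647). Its median was 5.31 count equivalents with high fat and 42.4 with control diet. Hfe2, which encodes hemojuvelin, was the single call of 16 in iron, heme and copper (1.54-fold higher, limma adjusted p = 0.0343). It was not called in the fit of all founder strains (adjusted p = 0.555), with equal totals (0.0679) or in 10 of 15 fits without 1 animal (up to 0.0802). By limma at an adjusted p under 0.05, 0 members were called of 24 tested for the interferon response, 7 for antigen presentation by MHC class II, 25 for extracellular matrix, 15 for cell division, 19 for the circadian clock, 31 for amino acid metabolism and the urea cycle, 24 for the respiratory chain and 16 of the Mup cluster. The interferon list had a median change of 0.36 with 22 of 24 positive, the MHC class II list one of 0.68 with 7 of 7 positive, and the respiratory chain one of 0.08 with 22 of 24 positive. Over all genes, 2057 had an unadjusted p under 0.05. In all, 38 of 503 tested members of the 23 pathway lists were called, where the share over all genes tested was 2.25%. The lists were chosen with earlier results of these data known, so this comparison is not a test of them.

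Markers of cell types were compared because the lists above could follow the mix of cells. The share called over all genes tested was 2.25%. Of 10 hepatocyte markers 0 were called, with 5 positive and 5 negative changes. Alb was high in every animal, with 365400 to 563100 count equivalents in high fat animals and 448700 to 662400 in controls. Other hepatocyte markers were low in single animals. Cyp2e1 was at 6897 count equivalents in control replicate 5 and at 40430 to 56560 in the other controls. Tat (2403) and Ass1 (6435) were lowest in high fat replicate 1. Of 15 Kupffer cell and macrophage markers 0 were called, with a median change of -0.07, and their summed level was 3906 to 6276 count equivalents with high fat and 3906 to 7101 with control diet. Among the 8 tested markers of lipid-associated macrophages, Fabp5 alone was called, and it was lower. The summed level of that list was 497 to 2552 count equivalents with high fat (median 563) and 544 to 3102 with control diet (median 1027). Its defining genes Trem2 and Gpnmb, too low to be tested, were high in single animals of both diets. Trem2 was at 37 in high fat replicate 5 and at most 15.5 in the other high fat animals, against 56.4 in control replicate 5 and at most 3.61 in the other controls. Gpnmb was at 104 in high fat replicate 5 and 206 in control replicate 5, against at most 27.1 and 7.15 in the others of each diet. Without both animals 572 genes were called, 235 of the 265 among them, and 22 of 25 cholesterol genes. Of the endothelial (10 tested), stellate (10), neutrophil (3), cholangiocyte (4), red blood cell (5) and pancreas and muscle (1) markers, 0 were called. The part of cell mix in the gene changes was not tested.

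**Figure D4:**
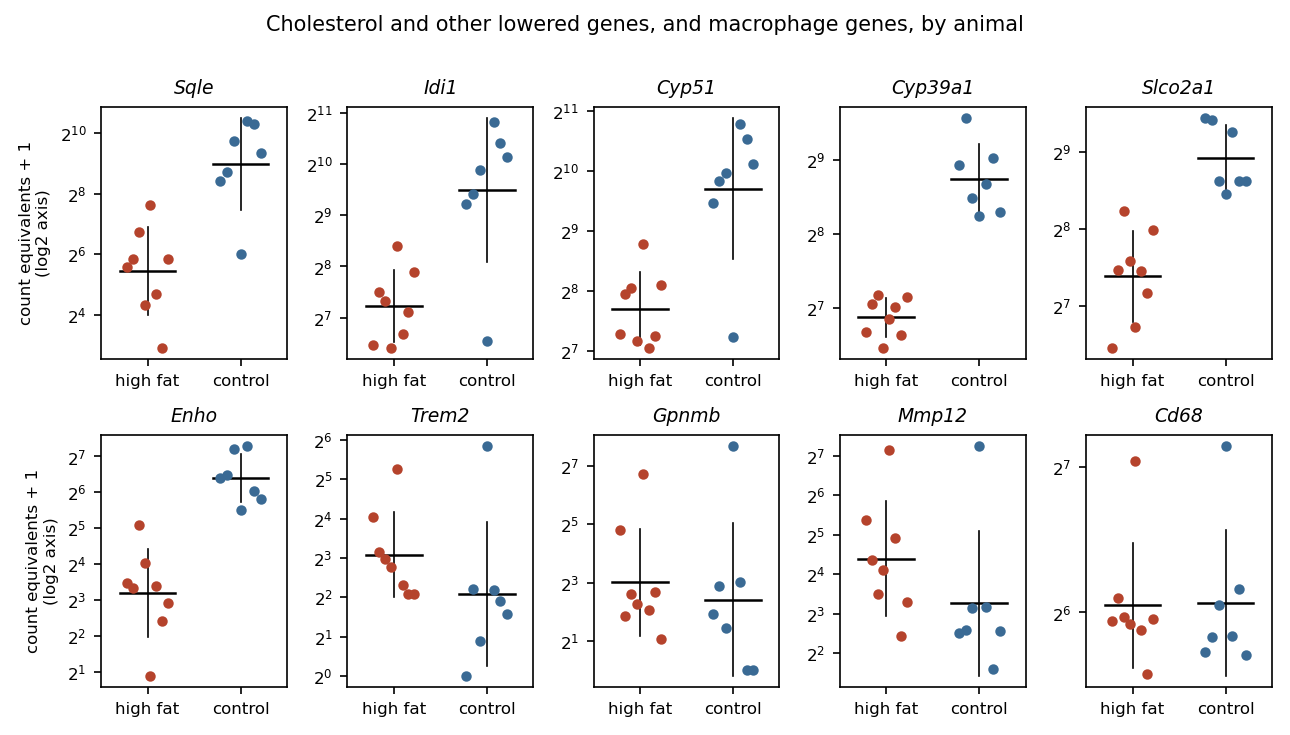
Each point is 1 B6 animal, high fat (red, n = 8) left of control (blue, n = 7), on a log2 axis of count equivalents + 1, with the mean and SD of the log2 values. In Sqle, Idi1 and Cyp51 a single control, replicate 5, sits at the level of the high fat animals, and in Trem2, Gpnmb, Mmp12 and Cd68 the same animal is the highest. Cyp39a1, Slco2a1 and Enho do not overlap.

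To ask which changes set B6 apart from the other founders, the B6 change was compared with the mean change of the other 7 strains in 1 fit of 16 groups of strain and diet that held every founder male except B6 control replicate 4. Of 13632 genes tested, 27 differed (0.198%), 18 with a higher change in B6 (0.132%) and 9 with a lower one (0.066%). In the same fit 450 genes were called for the diet in B6 (3.3%), 203 of the 265 among them. The share called was 1.58% in 129S1 (129S1/SvImJ), 0.22% in AJ (A/J), 1.2% in CAST (CAST/EiJ), 1.5% in NOD (NOD/ShiLtJ), 17.6% in NZO (NZO/HILtJ), 2.77% in PWK (PWK/PhJ) and 5.57% in WSB (WSB/EiJ). The NOD animal closest to B6 was kept in its labelled group, and without it 28 genes differed. NZO males were 20 weeks old and the others 26, and without NZO 49 genes differed.

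Cidea and Cfd gave the smallest p for the difference. Cidea changed by 5.44 in B6 and by 0.44 on average elsewhere, a difference of 5.00 ± 0.47 (limma adjusted p = 8.56e-15). It was also called in NZO, at 2.21 to 42.2 count equivalents with high fat (median 13.7) and 0 to 2.82 with control diet (median 0), a change of 3.27. In the other 6 strains no high fat animal exceeded 3.01 count equivalents of Cidea. Cfd changed by 4.95 in B6 and 0.37 on average elsewhere (difference 4.58 ± 0.46, limma adjusted p = 3.74e-13), and NZO, with a change of 2.14, was again the other strain called. Cd36 changed by 2.05 in B6 and 0.50 elsewhere (difference 1.55 ± 0.31, limma adjusted p = 0.0024), and was also called higher in 129S1 (1.36) and NZO (1.5). Cidec and Plin4 did not pass the test of the difference (2.53 ± 0.68, adjusted p = 0.0996, and 1.91 ± 0.54, adjusted p = 0.177), and in NZO they changed by 3.02 and 1.94.

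Themis changed by 4.57 in B6, 3.04 in 129S1 and 3.78 in NZO, the strains where it was called, and by 1.28 on average outside B6 (difference 3.29 ± 0.51, limma adjusted p = 1.17e-05). Cyp2b9 changed by 4.66 in B6 and 6.14 in NZO, and the difference of B6 from the mean of the others was 3.52 ± 0.77 (limma adjusted p = 0.0117). Enho changed by -3.20 in B6 and -0.51 on average elsewhere, with -1.36 in NZO also called (difference -2.69 ± 0.50, limma adjusted p = 0.000949). Csad, which makes taurine from cysteine, changed by -1.55 in B6 and by 0.50 on average elsewhere (difference -2.05 ± 0.39, limma adjusted p = 0.00119). It had 181 to 1169 count equivalents in B6 on high fat (median 321) and 421 to 2638 in B6 on control diet (median 1296). In the fit of B6 alone Csad was not called (adjusted p = 0.0961).

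C8b, a component of the complement attack complex, changed by -1.24 in B6 and -0.14 elsewhere (difference -1.10 ± 0.23, limma adjusted p = 0.00494). Its groups in B6 did not overlap, with 161 to 1442 count equivalents on high fat (median 1007) and 1490 to 2807 on control diet (median 1905), although the fit of B6 alone did not call it (adjusted p = 0.0836). Agxt2, a mitochondrial aminotransferase, had a small difference of 0.46 ± 0.10 (limma adjusted p = 0.00609), and its call in B6 alone (0.58 ± 0.14, adjusted p = 0.0453) reached 0.0975 without control replicate 6 and 0.0593 with the lane block. Gldn changed by -2.65 in B6 and -4.53 in WSB, the strains where it was called. The other strains held little Gldn in either diet, with at most 16.5 count equivalents, which was in the NOD animal on high fat that was closest to B6 (difference -1.95 ± 0.41, limma adjusted p = 0.00739). Mup9, a major urinary protein gene whose copies share sequence, changed by 2.40 in B6 and by 0.17 elsewhere (difference 2.23 ± 0.48, limma adjusted p = 0.00751). Its median on control diet was 387 count equivalents in B6 and 20050 or more in each other strain. Its assignment to a copy is uncertain. Without control replicate 5, Gldn (adjusted p = 0.0825) and Mup9 (adjusted p = 0.0637) no longer passed.

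The fall of Sqle, the widest of the cholesterol genes, did not pass the test of the difference. Sqle changed by -3.54 in B6 and by -3.08 on average in the other 7 strains, where it was lower in all 7 and called in 6, and the difference was -0.45 ± 0.71 (limma adjusted p = 0.997). PWK, the strain not called, changed by -1.07. Fitm1 changed by 2.05 in B6 and 1.5 elsewhere (difference 0.54 ± 0.33, adjusted p = 0.925), and Sema5b by 3.20 and 1.98 (difference 1.22 ± 0.55, adjusted p = 0.731).

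**Figure D5:**
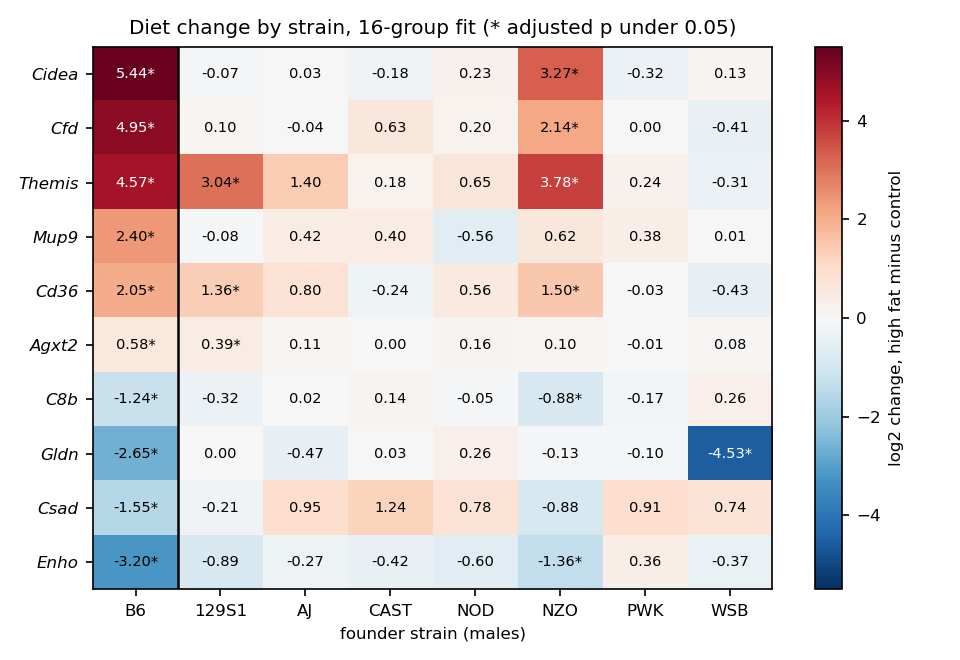
Each cell is the log2 change in high fat minus control animals of 1 strain, in the fit over 16 groups of strain and diet, with B6 at the left. Stars mark an adjusted p under 0.05. Rows are the 10 named genes whose B6 change differed from the mean of the other 7 strains with the smallest p: Cidea and Cfd are starred in B6 and NZO, and Gldn in B6 and WSB.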

How the data were processed

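Liver RNA-seq of 128 founder males was used. Reads were processed with CASAVA 1.8.0, Bowtie 0.12.8 and RSEM 1.2.1 on NCBIM37 (mm9), per the submitters' processing notes, which do not give their roles. The founder data used here are titled as aligned to the genomes of the strains. The deposited table holds a signal that the authors normalized so that the upper quartile of every column is 1, across 24965 genes. Low values came in steps, from which depth was estimated. Of recovered values under 20.5, 83.5% were whole within 0.1, so they are estimates and no count test was run. The planned choice for normalized values was used: limma 3.58.1 in R 4.3.3, with a trend, on log2(count equivalents + 1).

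A gene was tested when at least 7 of the 15 animals, or at least 7 animals in the fit of 16 groups, reached 10 count equivalents. Named genes are the 12 largest rises and 12 largest falls called with a mean of 20 or more, the 10 smallest p for the strain difference, up to 4 members per list and 10 fixed names, predicted symbols left out, and not all are described. Members and the 34 gene lists were chosen with earlier results of these data known. Symbols are from GENCODE M21 (22760 matched). That annotation is on another build, so no gene coordinates are given. Each animal is 1 replicate. The labels put every founder library on the same flowcell and each of 8 lanes held 1 animal of each strain and diet. The test was checked on simulated data. Alternatives covered animals, lane, scaling, pseudocount, filter and variance model. The tables of Diversity Outbred mice were not used here. A few genes are not reported here.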

Additional observations from a re-analysis of the deposited data

Results flagged for a closer look

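In 10 of 112 comparisons of 1 animal with the rest of its group, the gap to the nearest animal was wide for the group's range; chance gives about 1 in 20. Control replicate 5 accounted for 6 of the 10 as the animal far from the other controls. Its correlation with the B6 profile was 0.445. It had the lowest control values of Cyp51 (148.5 count equivalents), Idi1 (92.65) and Msmo1 (107), and the highest of Abcg5 (1347) and Cidec (324.3). High fat replicate 5 had the lowest C8b (160.7) and Mup9 (132.9) of its group, and high fat replicate 3 the lowest Cyp2b9 (3.417) and the highest Gldn (18.79).

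The diet change in B6 differed from the mean change of the other 7 strains, by limma's test of that difference, in the 10 genes named for it. The difference was 5.00 for Cidea, 4.58 for Cfd, 3.29 for Themis, 1.55 for Cd36, 2.23 for Mup9 and 0.459 for Agxt2, and -2.69 for Enho, -2.05 for Csad, -1.95 for Gldn and -1.1 for C8b.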

How the results depend on the processing

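Against the 265 calls in B6, other settings gave totals of 167 with control replicate 4 kept under its label (152 shared), 450 in the fit of 16 groups (203 shared), 160 with no filter on low values, 676 with sample quality weights, 22 when the fold was tested against 1.2, and 572 without the pair of animals with the highest Trem2 and Gpnmb, an alternative chosen after seeing the data. Without 1 animal the count ran from 93 to 637. For the strain difference, 49 genes were called without NZO, 44 with no filter and 98 with weights, against 27. For the pathway lists, 19 members were called with control replicate 4 kept, 58 in the fit of 16 groups, 76 with weights, 9 against the fold of 1.2, 80 without that pair of animals and 15 to 73 without 1 animal, against 38. Fgf21, which was not called, changed sign without high fat replicate 3 (-0.03825) and without that pair (-0.01304), and ran up to 0.6503 without 1 animal. The cause of these shifts was not tested. With control replicate 4 kept, Agpat2, Chac1, Orm3, Fabp5, Adgrf1, Prss8, Gldn and Agxt2 also lost their call in B6 (adjusted p of 0.0628 to 0.182), and Agxt2 (adjusted p = 0.0978), Gldn (0.361) and Mup9 (0.717) no longer passed the limma test of the strain difference.

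Of the 47 called genes described, 26 kept their call with lane as a block (179 genes called in all, 130 shared), 24 with control replicate 4 kept, 44 in the fit of 16 groups, 46 and 47 with pseudocounts of 0.5 and 5, 32 with no filter, 37 with a filter at 50, which left 11 described genes without a value, 47 with median of ratios scaling, 41 each with quantile normalization and equal totals, 37 without a trend, 47 with weights and 15 against the fold of 1.2. Abcc3, Cfd, Cidea, Enho, Fitm1, Mogat1, Sema5b, Slco2a1, Smpd3, Themis and Vnn1 kept it in all of these that gave a value. Cidea, Gldn and Mogat1 fell under the filter in some fits without 1 animal, and each had a value in 8 of 15 such fits. By replicate number, no paired analysis was possible because the labels carry none and the numbers here only name animals. Lane pairs 1 high fat with 1 control animal in 7 lanes, and the block on lane is that paired fit. Depth limits the genes with few reads: those under about 10 count equivalents in most animals were not tested.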
